A study of Mus musculus with 4 samples.

Results

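The regions described here are 300 stretches of open chromatin whose ATAC-seq peak was weaker in Scd1-deficient cells than in control cells both in DN3 thymocytes and in naive CD4 T cells. They were taken from 90270 regions found in at least 1 of the 4 libraries, of which 37418 carried a peak in every library and 36229 of these were at least 500 bp wide. These 36229 are called the common regions below, and the 300 members are 0.828% of them. ATAC-seq cuts and tags accessible DNA with the Tn5 transposase, so a peak marks DNA that is not tightly packed. The 4 libraries were Scd1-deficient DN3 cells, littermate control DN3 cells, Scd1-deficient naive CD4 cells and littermate control naive CD4 cells, with 1 library in each group. DN3 cells were sorted from thymus as lineage-negative cells lacking CD4, CD8 and CD44 and carrying CD25, and naive CD4 cells were taken from spleen with magnetic beads. No treatment was given, and the labels state neither the age of the mice, nor their number per library, nor which piece of Scd1 was removed or in which cells. The titles of the control libraries carry the letters HZ, which the labels do not explain.

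Scd1 encodes stearoyl-CoA desaturase 1, an enzyme of the endoplasmic reticulum that places a double bond in saturated fatty acyl chains and so supplies oleate and palmitoleate for membranes, storage lipids and protein acylation. DN3 is the stage of thymic development at which the T cell receptor beta chain is rearranged and tested. Open chromatin falls broadly into promoters, which lie at gene starts and often stay open in many cell types, and distal elements such as enhancers, which lie inside or between genes and differ more between cell types.

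The value used is the relative fold, which is the highest fold over local background that the authors' peak caller gave within a region, divided by the median fold of that library's list. Members are the regions with the highest smaller of the 2 control over Scd1-deficient ratios of this value. The choice therefore fixes that every member is lower without Scd1, and the relative folds and their ratios are a description only. With 1 library per group there is no replicate error and no test between genotypes. Ratios below are Scd1-deficient over control.

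Among members the ratio had a median of 0.799 in DN3 cells, between 0.523 and 0.858, and a median of 0.801 in naive cells, between 0.516 and 0.858. Over all common regions the median was 1.03 in DN3 and 1.05 in naive cells. The last members taken were a region inside Brms1l, with ratios of 0.8575 in DN3 and 0.8319 in naive cells, and one inside Thrb, with 0.8332 and 0.8575. The regions that just missed were one 10.1 kb from Mxi1, with 0.8581 in DN3 and 0.8408 in naive cells, and one inside Rbpj, with 0.6625 and 0.8584. No gap in the values separated the members from the regions just outside.

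**Figure D1:**
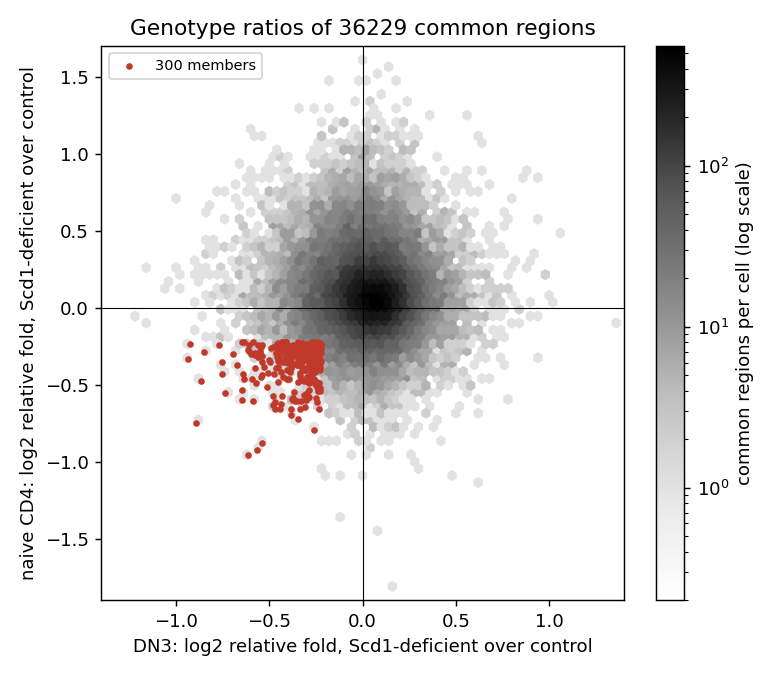
Each axis is the log2 ratio of relative fold, Scd1-deficient over control, in DN3 cells (x) and naive CD4 cells (y). Grey cells count the 36229 common regions on a log scale, and red points are the 300 members, which form the lower left corner of a cloud with no tail in that direction.

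Few members were promoters. RefSeq start sites lay in 13 members, and these held 17 annotated promoters of 16 genes. The sequences below show that these few promoters ranged from CG-rich to nearly free of CG pairs. They run from 250 bases before to 50 bases after the start site, come from RefSeq on GRCm38.p6, the assembly that mm10 is built on, and are written 5′ to 3′ on the strand of the gene. Capitals mark matches on either strand to short letter patterns: GGAAGT, bound by ETS factors; CCAAT, bound by NF-Y; GGGCGGG, bound by KLF and SP factors; TGANTCA, bound by AP-1; and AGATAA, bound by GATA factors. Only Gm20110 belongs to the first 20 members; the other 5 promoters were picked after their values were seen, to span the range of CG content. The promoter of the long noncoding RNA gene Gm20110 lies at chr10:99608921-99609220 on the plus strand, and that of Mterf1b, of the mitochondrial transcription termination factor family, at chr5:4192117-4192416 on the plus strand. The promoter of Slc1a3, a glutamate transporter, lies at chr15:8710758-8711057 on the minus strand, and that of Rarg, the retinoic acid receptor gamma, at chr15:102246451-102246750 on the minus strand. The promoter of Orm3, of the orosomucoid family of plasma proteins, lies at chr4:63355908-63356207 on the plus strand, and that of Evi2b, a membrane protein gene inside an intron of Nf1, at chr11:79523713-79524012 on the minus strand.
Gm20110: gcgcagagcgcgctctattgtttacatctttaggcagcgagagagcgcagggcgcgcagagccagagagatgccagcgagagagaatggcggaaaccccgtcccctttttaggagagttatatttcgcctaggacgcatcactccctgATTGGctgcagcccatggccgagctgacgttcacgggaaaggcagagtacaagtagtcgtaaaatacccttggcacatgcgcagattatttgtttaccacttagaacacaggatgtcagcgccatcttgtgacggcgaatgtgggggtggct
Mterf1b: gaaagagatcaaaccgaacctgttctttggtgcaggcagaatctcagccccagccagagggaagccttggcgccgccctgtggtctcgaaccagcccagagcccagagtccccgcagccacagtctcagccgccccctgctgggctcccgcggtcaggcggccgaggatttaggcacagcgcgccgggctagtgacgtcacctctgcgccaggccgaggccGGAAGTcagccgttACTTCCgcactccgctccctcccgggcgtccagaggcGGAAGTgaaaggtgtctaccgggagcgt
Slc1a3: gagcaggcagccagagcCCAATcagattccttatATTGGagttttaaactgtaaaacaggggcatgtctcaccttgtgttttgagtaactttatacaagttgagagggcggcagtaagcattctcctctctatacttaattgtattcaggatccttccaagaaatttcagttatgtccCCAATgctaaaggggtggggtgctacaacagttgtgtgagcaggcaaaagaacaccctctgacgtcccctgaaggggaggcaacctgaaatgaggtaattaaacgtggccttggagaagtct
Rarg: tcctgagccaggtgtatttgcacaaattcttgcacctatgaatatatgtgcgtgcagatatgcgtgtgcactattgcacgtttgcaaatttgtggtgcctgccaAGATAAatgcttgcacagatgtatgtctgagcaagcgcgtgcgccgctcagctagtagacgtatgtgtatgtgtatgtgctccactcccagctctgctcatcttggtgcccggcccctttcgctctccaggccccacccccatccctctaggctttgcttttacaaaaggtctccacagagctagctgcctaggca
Orm3: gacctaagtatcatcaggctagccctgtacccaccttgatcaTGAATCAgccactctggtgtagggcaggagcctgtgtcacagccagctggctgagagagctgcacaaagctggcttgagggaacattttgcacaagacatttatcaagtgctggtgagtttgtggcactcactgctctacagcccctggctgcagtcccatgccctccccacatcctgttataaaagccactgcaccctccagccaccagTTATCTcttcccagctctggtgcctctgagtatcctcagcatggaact
Evi2b: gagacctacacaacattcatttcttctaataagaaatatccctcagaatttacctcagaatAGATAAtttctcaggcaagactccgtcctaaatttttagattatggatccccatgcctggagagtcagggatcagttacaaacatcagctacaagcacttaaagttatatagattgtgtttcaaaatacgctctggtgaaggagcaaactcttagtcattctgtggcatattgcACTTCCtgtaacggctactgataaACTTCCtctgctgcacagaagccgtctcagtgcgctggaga

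The Mterf1b promoter held 25 CG pairs and 3 GGAAGT matches, and the Gm20110 promoter held 20 CG pairs and 1 CCAAT match. The Slc1a3 promoter held 3 CG pairs and 3 CCAAT matches, the Evi2b promoter 5 CG pairs with 2 GGAAGT matches and 1 AGATAA match, and the Orm3 promoter no CG pair, with 1 TGANTCA and 1 AGATAA match. The Rarg promoter held 10 CG pairs and 1 AGATAA match. Over the 17 member promoters the median was 6 CG pairs, against 22 over the 13191 promoters whose start lies in any common region and 7 over all 32619 RefSeq promoters. Fewer than 10 CG pairs were found in 58.8% of member promoters, in 14.9% of the promoters in common regions and in 56.2% of all promoters. The 10 such member promoters lie in 7 members, since some overlap in 1 region. In the weakest of 4 equal bands of common regions, by mean relative fold over the 4 libraries, 27.6% of promoters were that poor in CG pairs, and among the 34 promoters in the 300 regions most increased without Scd1, chosen by the mirror image of the rule, 29.4% were.

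GGGCGGG stood in 2 member promoters, 11.8%, with a Wilson 95% interval of 3.29% to 34.3% for counting error. It stood in 48.8% of promoters in common regions and in 25.7% of all promoters. AGATAA stood in 5 member promoters, 29.4% with an interval of 13.3% to 53.1%, against 5.64% in common regions and 11.2% of all promoters. In the weakest band it stood in 7.56% of promoters, and in the regions most increased without Scd1 in 2.94%. The 5 member promoters belong to 4 members, since those of D630039A03Rik and Gm42293 overlap head to head in 1 region and share the same match. The interval treats all 17 promoters as separate, so it is too narrow. GGAAGT was found in 4 member promoters (23.5%, against 28.2% in common regions and 23.9% of all), CCAAT in 4, from 3 members (23.5%, against 37.1% and 37.6%) and TGANTCA in 2 (11.8%, against 4.43% and 7.85%). TCACNCCAC, a form of the sterol response element bound by SREBP, was in none of the 17, and in 1.19% of promoters in common regions and 1.25% of all. With 17 promoters these shares carry wide counting error, and a match is a letter pattern, not a bound site.

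The 20 members with the lowest larger ratio lay mostly away from promoters: 11 were intergenic, 8 were inside a protein-coding gene and 1 was within 1 kb of a gene end. Distances to genes are given from the strongest summit of the control DN3 list to the nearest annotated end of a protein-coding gene, and coordinates are on mm10. A nearest gene is a landmark and is not shown to be the gene the region acts on.

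The first member, at chr8:88691324-88692518, lies 3.25 kb from Nod2, an intracellular sensor of bacterial cell wall fragments. Its relative fold was 0.229 in Scd1-deficient and 0.425 in control DN3 cells, and 0.351 in Scd1-deficient and 0.588 in control naive cells. The fold was thus lower without Scd1 in both cell types, with ratios of 0.539 and 0.596, but the fragments at the summit did not follow in DN3 cells. There the summit held 58 fragments in Scd1-deficient and 49 in control cells, over a local background of 37.9 and 16.3 fragments. In naive cells the summit held 200 fragments in Scd1-deficient and 446 in control cells, over a local background of 71.1 and 97.9. The lower DN3 fold of this region therefore came with a higher local background, not with fewer summit fragments.

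The second member, at chr10:99608574-99609645, holds the start of Gm20110 shown above and lies 149 kb from the nearest protein-coding gene end, that of Csl, a citrate synthase-like gene. Its relative fold was 0.386 in Scd1-deficient and 0.590 in control DN3 cells, and 0.703 in Scd1-deficient and 1.36 in control naive cells. Its naive ratio of 0.516 was the lowest of all members, on 25 summit fragments in Scd1-deficient and 63 in control cells. In DN3 cells the summits held only 13 fragments in Scd1-deficient and 22 in control cells, and no member had fewer than 13 in that Scd1-deficient library.

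Among the first 20, the members inside T cell genes were those of Tcf12 and Fyn. Tcf12 encodes HEB, an E protein that works with E2A in thymocyte development, and its member lies at chr9:71905180-71906050, 61.2 kb from the nearest end of the gene. Relative fold there was 0.744 in Scd1-deficient and 1.10 in control DN3 cells, with 26 and 42 summit fragments. In naive cells it was 0.595 in Scd1-deficient and 1.13 in control, with 21 and 52 summit fragments. Both contrasts were lower without Scd1, with ratios of 0.675 in DN3 and 0.527 in naive cells.

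Fyn encodes a Src family kinase that acts early in T cell receptor signalling. Its member, at chr10:39514343-39515326 and 50.3 kb from the nearest end of the gene, had a relative fold of 0.825 in Scd1-deficient and 1.12 in control DN3 cells, and of 0.443 in Scd1-deficient and 0.698 in control naive cells. The ratios were 0.736 and 0.634. Summit fragments numbered 69 in Scd1-deficient and 97 in control DN3 cells, and 22 in Scd1-deficient and 46 in control naive cells.

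The strongest of the first 20 in both control libraries was a member inside Slc15a2, which encodes a transporter of short peptides, at chr16:36769469-36770838. Its relative fold was 1.13 in Scd1-deficient and 1.77 in control DN3 cells, and 1.73 in Scd1-deficient and 2.50 in control naive cells. Its summit held 40 fragments in Scd1-deficient and 68 in control DN3 cells, and 63 in Scd1-deficient and 221 in control naive cells. Only the Nod2 member had more naive control fragments among the first 20, and the fragment ratio here was 0.285 in naive cells, the lowest of all members.

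Hspa8, which encodes the constitutive HSP70 chaperone, lies 1.33 kb from a member at chr9:40806461-40808270 with a relative fold of 0.475 in Scd1-deficient and 0.705 in control DN3 cells, and of 0.305 in Scd1-deficient and 0.428 in control naive cells. As at Nod2, the DN3 summits were close in fragments, with 92 in Scd1-deficient and 99 in control cells, while the local background was 28.5 and 19.8. The member inside Rab36, a small GTPase gene, showed the same arrangement in DN3 cells, with 40 summit fragments in Scd1-deficient and 44 in control over a background of 11.6 and 6.36. Ifit2, an interferon-induced gene, holds a member with a relative fold of 1.07 in Scd1-deficient and 1.5 in control DN3 cells, and of 0.858 in Scd1-deficient and 1.28 in control naive cells. Over the whole set, summit fragments were as a rule lower too. The fragment ratio reached or passed the median of all common regions in 4 members in DN3 cells and in 4 members in naive cells.

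The rest of the first 20 lie in or near genes of mixed function. Inside genes were members in Lmln, a leishmanolysin-like metallopeptidase gene, Supt3, which encodes a subunit of the SAGA coactivator, and Cxadr, the coxsackievirus and adenovirus receptor gene. Between genes were members 4.23 kb from Rnf186, 45.5 kb from Bhmt, 103 kb from Prag1, 22.1 kb from Pak1, 14.5 kb from Zfp592, 6.87 kb from Foxq1, 26.5 kb from Spns3 and, on the X chromosome, 104 kb from Pja1. The 1 member at a gene end lay 0.37 kb from Rnf122. Bhmt encodes an enzyme of methionine synthesis in the liver, Pak1 a kinase downstream of Rac and Cdc42, Foxq1 a forkhead factor, and Rnf186, Rnf122 and Pja1 RING-type ubiquitin ligases. Across these 12 members the DN3 ratio ran between 0.6 and 0.730 and the naive ratio between 0.544 and 0.733.

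**Figure D2:**
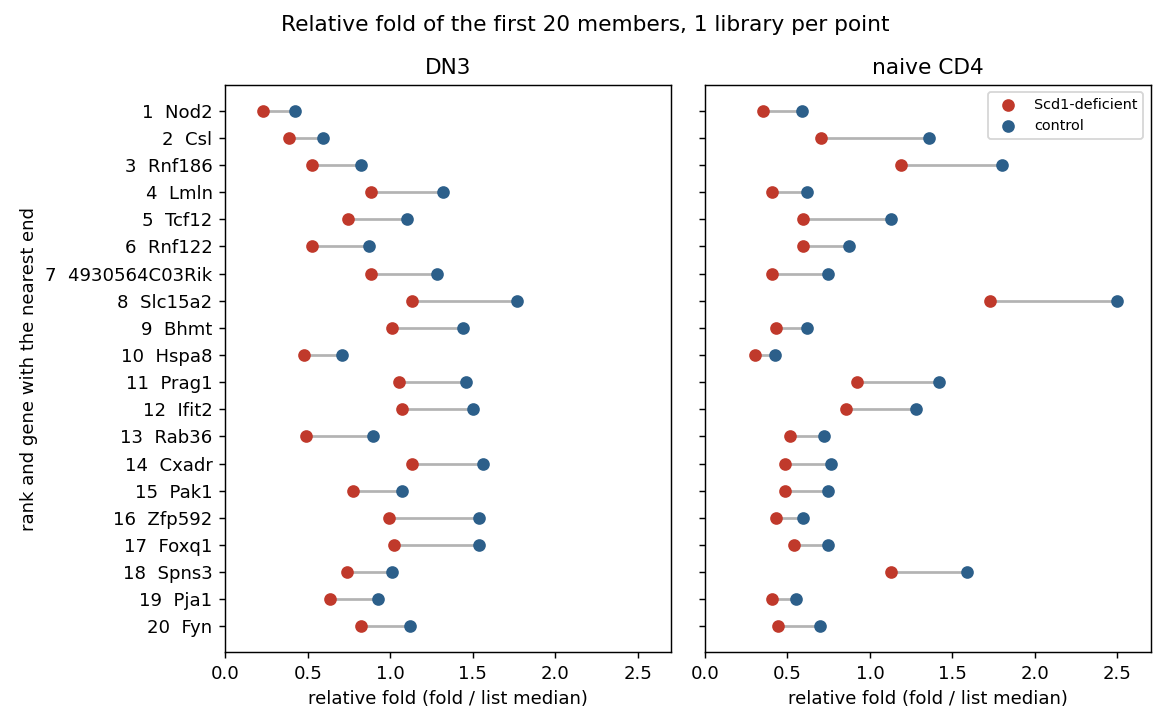
Relative fold (fold over the median of the list, x) of the first 20 members in DN3 and naive CD4 cells, labelled by rank and by the gene with the nearest annotated end. Red points are Scd1-deficient and blue points control libraries, 1 library per point; the Slc15a2 member stands highest in naive cells and the Nod2 member lowest in DN3 cells.

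Summit fragments were read back from each deposited fold and p value, and they show how little sequence stands behind a member. The median summit held 38 fragments in Scd1-deficient and 53 in control DN3 cells, and 34.5 in Scd1-deficient and 57 in control naive cells. Over all common regions the medians were 124 in Scd1-deficient and 135 in control DN3 cells, and 114 in Scd1-deficient and 142 in control naive cells. The fragment ratio of members had a median of 0.714 in DN3 and 0.596 in naive cells, against 0.947 and 0.798 over common regions, so part of the raw deficit, above all in naive cells, was shared by the whole library. Local background ratios of members, with medians of 0.948 in DN3 and 0.714 in naive cells, were like those of common regions, at 0.946 and 0.714. In members, however, the median local background was only 1.11 to 1.19 times the lowest of its list. Where it equals the lowest in both genotypes, the ratio is fixed by the lists and says nothing about the region.

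A 95% counting interval of the fragment ratio was set beside the median ratio of the common regions. It lay wholly below that median in 40 of 300 members in DN3 cells (2.11% of all common regions) and in 71 in naive cells (12.1% of all common regions). In 7 members both intervals lay below (0.179% of all common regions, 65 regions), and in 65.3% of members neither did. Because members were chosen for low values of these same libraries, a share above that of all common regions is built into the choice, and the intervals cover counting error only. For most members the counting interval of the fragment ratio thus reached the ratio typical of the library.

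**Figure D3:**
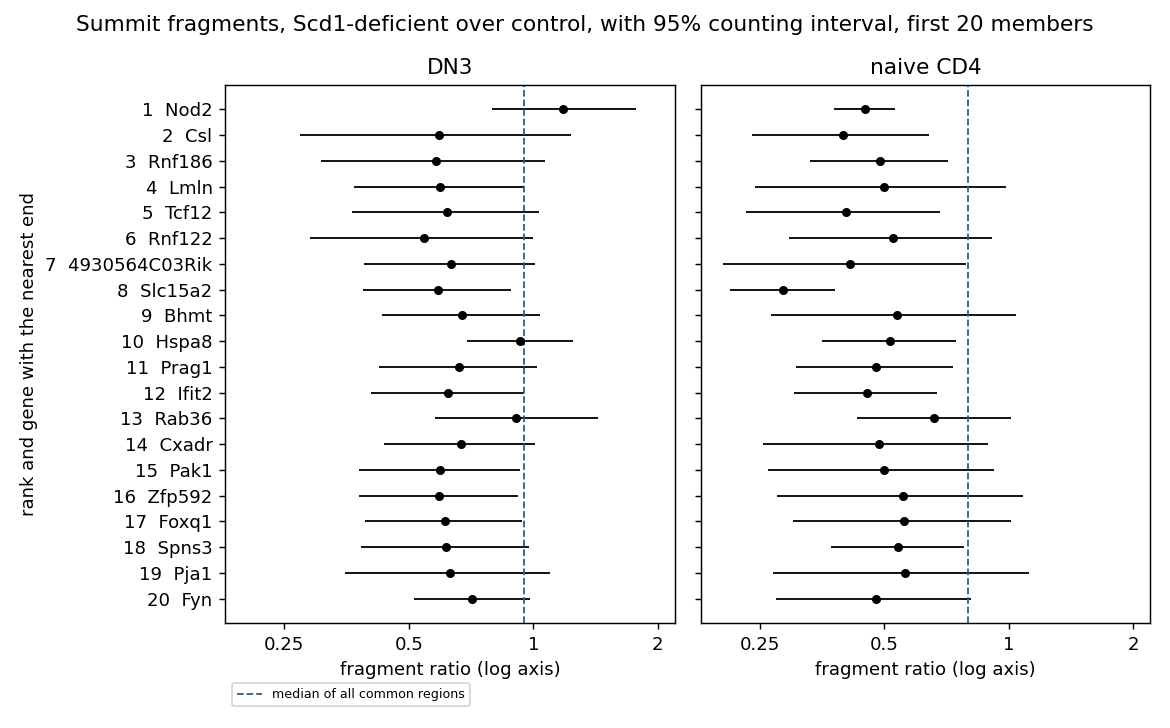
Ratio of summit fragments, Scd1-deficient over control, on a log axis for the first 20 members in DN3 and naive CD4 cells, with 95% counting intervals as bars. The dashed line is the median of all common regions, 0.947 in DN3 and 0.798 in naive cells; 4 intervals lie wholly below it in DN3 and 10 in naive cells, and the one at Slc15a2 does so in both.

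The 7 members with both intervals below, named after their values were seen, were the Slc15a2 member and regions of larger summits. The Rarg member held the most fragments among the 7 in DN3 cells, with 155 in Scd1-deficient and 205 in control, and 373 in Scd1-deficient and 615 in control naive cells. Its relative fold was 0.807 and 0.969 in Scd1-deficient and control DN3 cells, and 0.783 and 0.938 in Scd1-deficient and control naive cells. It is 2333 bp wide and covers the Rarg start shown above, which lies inside the gene and not at its annotated end. Its control DN3 summit is 10.4 kb from the nearest end of Rarg, which encodes a nuclear receptor for retinoic acid. A member 1.11 kb from Bub1b, a spindle checkpoint kinase gene, held 81 fragments in Scd1-deficient and 116 in control DN3 cells, and 291 in Scd1-deficient and 620 in control naive cells. A member inside Rab8b, a small GTPase gene of vesicle traffic, held 97 in Scd1-deficient and 136 in control DN3 cells, and 89 in Scd1-deficient and 151 in control naive cells. The other members were 3.27 kb from Kansl2, 16.2 kb from Trp53rkb and 71.9 kb from Disc1, with DN3 fragment ratios of 0.734, 0.679 and 0.691 and naive ratios of 0.543, 0.538 and 0.546.

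A direct look at whether the contrasts of the 2 cell types move together does not need the rule, because they share no library. Over the 36229 common regions the DN3 and naive ratios had a Spearman correlation of -0.0333 and a Pearson correlation on the log2 scale of -0.0325. This is a description over regions that share depth, width and base composition within a library. Regions lower without Scd1 in one cell type were thus not, across the range, the ones lower in the other.

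At a 1.2-fold limit, 2056 regions were lower without Scd1 in DN3 cells (5.68% of common regions), 230 of them members, and 1747 were lower in naive cells (4.82%), 219 of them members. Both ratios were below 1 in 4375 regions (12.1%), all 300 members among them, and above 1 in 15243 (42.1%). The 1.2-fold limit was met in both cell types by 173 regions (0.478%), all of them members, while 600 regions (1.66%) were higher by that much in both cell types. At 1.5-fold, 4 regions (0.011%) were lower in both and 11 (0.0304%) were higher in both. This balance rests on the scaling of the lists, whose common regions had medians above 1. With each library scaled instead by its median over the common regions, 379 regions (1.05%) were lower in both and 313 (0.864%) higher in both.

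Of the regions lower in DN3 cells, 8.41% were also lower in naive cells, against 4.82% of all common regions. The 2 shares were closer within the 4 bands of strength. In the weakest band, with a mean relative fold under 0.891, 11.7% of DN3-lower regions were also lower in naive cells, against 9.11% of all regions in the band. In the next band the shares were 8.70% and 6.56%, in the third 2.51% and 2.96%, and in the strongest 1.41% and 0.662%. These bands held 104, 58, 9 and 2 regions lower in both. The spread of the log2 DN3 ratio over regions was smaller in stronger bands, with an SD of 0.226 in the weakest and 0.123 in the strongest.

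**Figure D4:**
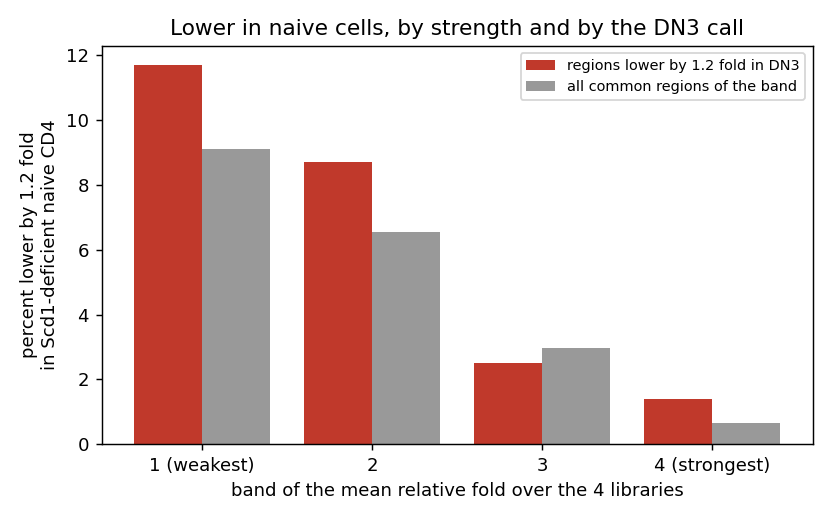
Percent of regions lower by 1.2-fold in Scd1-deficient naive CD4 cells (y) in each of 4 equal bands of the mean relative fold over the 4 libraries (x), weakest to strongest. Red bars are the regions lower by 1.2-fold in DN3 cells and grey bars all common regions of the band; both are lower in each stronger band, and the red bar is the higher one in bands 1, 2 and 4.

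Choosing on 1 cell type alone gave the value in the other without selection. The 300 regions with the lowest DN3 ratio had a median naive ratio of 1.07, against 1.05 over all common regions. In naive cells 34 of them, 11.3% with an interval of 8.22% to 15.4%, were lower by 1.2-fold, against 4.82% of all. The 300 regions with the lowest naive ratio had a median DN3 ratio of 1.01, against 1.03, and 35 of them, 11.7% with an interval of 8.51% to 15.8%, were lower in DN3 cells, against 5.68% of all. In both choices more than the usual share was low in the other cell type while the median hardly moved. In both, the weakest band supplied 52.3% and 55.3% of the regions chosen.

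The members were mostly weak regions, and so were the 300 regions chosen in the opposite direction. The weakest band of common regions supplied 56.3% of members, with an interval of 50.7% to 61.8%, and 50.3% of the 300 regions stronger without Scd1. The 4 bands gave 169, 101, 26 and 4 members. Median relative fold of members was 0.799 in Scd1-deficient and 1.05 in control DN3 cells, and 0.703 in Scd1-deficient and 0.892 in control naive cells. Over common regions it was 1.36 and 1.33 in Scd1-deficient and control DN3 cells, and 1.23 and 1.16 in Scd1-deficient and control naive cells. The members thus stood below the common regions in the control libraries as well. The median −log10 q was 16.1 in Scd1-deficient and 27.5 in control DN3 cells, and 14.8 in Scd1-deficient and 28.3 in control naive cells. Over common regions it was 73.1 in Scd1-deficient and 79.3 in control DN3 cells, and 71.3 in Scd1-deficient and 81.2 in control naive cells. The lower quartile of members was 8.82 in Scd1-deficient DN3 cells and 7.34 in Scd1-deficient naive cells.

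Position was not used by the rule. Of the members 27, or 9.0% with an interval of 6.26% to 12.8%, lay within 1 kb of an annotated end of a protein-coding gene. The share was 14.0%, between 10.5% and 18.4%, in the regions stronger without Scd1 and 32.4% over common regions. Weighting the common regions to the strength bands of the members lowered their share to 23.1%, still outside the members' interval. The bands match relative fold only, not summit fragments or local background. A local background above 3 times the lowest of its list stood in 22.0% of members. It stood in 62.3% of the weakest band of common regions and in 85.7% of gene-end common regions. The part of background in the gene-end share was not tested. Inside a gene lay 50.3% of members, against 48.0% of the stronger set and 38.1% of common regions, and between genes 40.7%, against 38.0% and 29.4%. A RefSeq start site lay in 4.42% of members, leaving out chromosome 18, for which no start sites were used, with an interval of 2.60% to 7.42%, against 10.8% of the stronger set and 28.0% of common regions, or 18.2% after weighting.

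The median distance from the edge of a member to the nearest gene end was 20 kb, against 11.7 kb for the stronger set and 6.97 kb for common regions. Members were 980 bp wide in the median, between 501 and 3070 bp, against 830 bp for the stronger set and 1160 bp for common regions. The widest were regions at the start of Rab20, 3070 bp, at D630039A03Rik, 2451 bp, 25.7 kb from Lbh, 2372 bp, inside Cdk19, 2365 bp, and at Rarg, 2333 bp. Rab20 encodes a small GTPase of endosomes and Cdk19 a kinase of the Mediator complex. A local background above 3 times the lowest of its list was found in 22.0% of members, 23.7% of the stronger set and 60.9% of common regions.

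**Figure D5:**
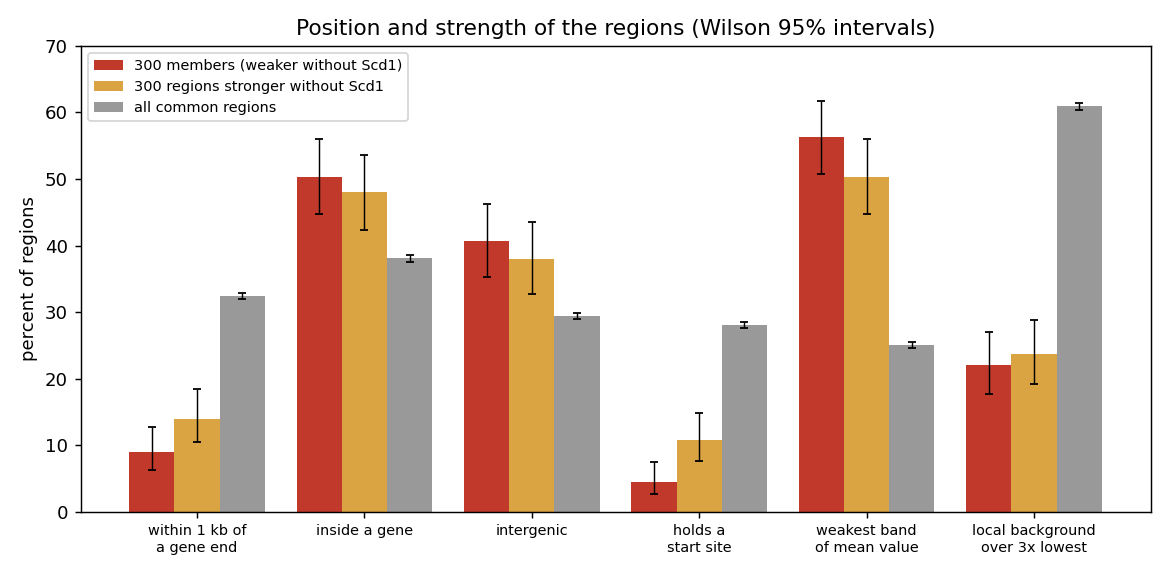
Percent of regions (y) in each class of position and strength for the 300 members (red), the 300 regions stronger without Scd1 (yellow) and all common regions (grey), with Wilson 95% intervals as bars. Members sit lowest at gene ends and start sites, and both chosen sets hold more regions of the weakest band than the common regions do.

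Summits were less stable in place in members and in the weakest band than in common regions as a whole. Within the weakest band, members were less stable than the band. The median distance between the Scd1-deficient and control summits was 31 bp in DN3 and 39 bp in naive cells, against 15.5 bp and 24 bp in the stronger set and 10 bp and 17 bp in common regions. In the weakest band of common regions it was 30 bp in DN3 and 37 bp in naive cells. In the members of that band it was 49 bp in DN3 and 45 bp in naive cells, and in its stronger set 38 bp and 31 bp. Summits lay within 150 bp in 79.3% of members in DN3 and 80.3% in naive cells, against 87.0% and 89.0% of the stronger set, 84.6% and 82.1% of the weakest band and 92.3% and 90.8% of common regions. Of the members in the weakest band, 69.8% had this in DN3, with an interval of 62.5% to 76.2%. In naive cells 74.0% did, with an interval of 66.9% to 80.0%, and both intervals lay below the share of the band. Of the stronger set in that band, 79.5% had this in DN3 and 84.1% in naive cells. Members of the band held medians of 32 Scd1-deficient and 45 control DN3 summit fragments, against 71 and 78 over the band. In naive cells these were 25 and 42, against 58 and 74. The stronger set of the band held 53 and 42 in DN3 and 35 and 31 in naive cells. The part of fragment number in summit position was not tested. Where summits lay further apart, the highest peak of the region was not at the same place in both genotypes. The part that summit position has in the weaker values was not tested.

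The nearest other common region, member or not, lay within 50 kb of 279 members, at a median distance of 9.36 kb. These neighbours had median ratios of 1.03 in DN3 and 1.06 in naive cells, against 1.03 and 1.05 for the neighbours of all common regions. They were lower by 1.2-fold in 5.73% of cases in DN3 and 5.73% in naive cells, against 5.68% and 4.84%. In both cell types 2 of the 279 were lower by that much, 0.717% with an interval of 0.197% to 2.58%, against 0.484% of the neighbours of all common regions. That difference is within the counting interval.

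At the level of genes, 8 protein-coding genes carried 2 members within the gene or 10 kb on either side. They were Cxadr, Utrn, which encodes the dystrophin relative utrophin, Dguok, which encodes the mitochondrial deoxyguanosine kinase, Cadm1, a cell adhesion gene, Slc9a9, an endosomal sodium and proton exchanger gene, Mbnl1, a splicing regulator gene, Armc2 and Cmtm7. In Cxadr the members had DN3 ratios of 0.722 and 0.786 and naive ratios of 0.635 and 0.605. In Utrn they had DN3 ratios of 0.740 and 0.816 and naive ratios of 0.672 and 0.837, and they were 2 of the 10 common regions of that gene. Mbnl1 had 16 common regions and Slc9a9 10, while Cxadr had 3, so these genes differed widely in how many regions could become members. In all, 12 pairs of members lay within 100 kb of each other.

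Members were more frequent on the X chromosome. It carried 16 of them, 5.33% with an interval of 3.31% to 8.49%, against 2.16% of common regions, so that 2.04% of the 783 common regions on X were members, against 0.801% of 35446 on the autosomes. Most of the difference lay in the second band of strength, where 10 of 177 X regions were members (5.65%), against 91 of 8880 autosomal regions (1.02%). In the weakest band 5 of 175 were (2.86%), against 1.85% of the autosomal regions. Median ratios over all X regions were 1.04 in DN3 and 1.04 in naive cells, against 1.03 and 1.05 on autosomes, so the X was not lower as a whole. The stronger set had 10 regions on X, 3.33% with an interval of 1.82% to 6.03%. Neither counting interval of the fragment ratio lay below the common median in 15 of the 16 X members (93.8%). The share was 63.7% among autosomal members. One X member lies inside Gata1, the erythroid and megakaryocyte factor gene, and others hold the starts of Mid1, Bex3 and P2ry10b. The sex of the mice is not in the labels, and its part in the X count was not tested. Among autosomes the member share ran between 0.466% on chromosome 13 and 1.27% on chromosome 9.

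Gene lists were read beside the rate over all protein-coding genes, where 261 of 14990 genes with a common region had a member (1.74%) and 0.653% of gene and region pairs were members. Of 291 symbols in 16 lists, 280 had a common region and 11 had a member (3.93%), in 10 distinct regions. This share by gene does not allow for how many common regions a gene holds, so 3.93% and 1.74% are not a like comparison. The list of T lineage transcription factors had 183 at 20 genes and that of cholesterol synthesis and uptake 44 at 20, against 41211 at all 14990. Among T lineage transcription factors 2 of 20 genes had a member, Tcf12 and Fli1, which make up 1.09% of the regions of that list. Fli1 encodes an ETS factor of blood cell development. Its member had a relative fold of 0.464 in Scd1-deficient and 0.628 in control DN3 cells, and of 0.358 in Scd1-deficient and 0.552 in control naive cells, with ratios of 0.738 and 0.649.

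Among genes of naive T cell homing and quiescence 2 of 18 had a member, 1.69% of the list's regions. The one in Foxp1, a forkhead factor that keeps naive T cells quiescent, had 0.386 in Scd1-deficient and 0.564 in control DN3 cells, and 0.724 in Scd1-deficient and 0.878 in control naive cells, in relative fold. The one assigned to Klf2, which governs exit from thymus and lymph node, lies nearer to Eps15l1, at 9.64 kb, and had 0.539 in Scd1-deficient and 0.662 in control DN3 cells, and 0.716 in Scd1-deficient and 0.853 in control naive cells. At the end of Klf2 itself relative fold was 1.49 in Scd1-deficient and 1.52 in control DN3 cells, and 0.775 in Scd1-deficient and 0.825 in control naive cells. The member was chosen for its low ratios and the region at the gene end was not, so no comparison between them is drawn.

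Among cytokine receptor and STAT genes 1 of 20 had a member (0.971% of regions), inside Jak1, the kinase shared by many cytokine receptors, with 0.971 in Scd1-deficient and 1.33 in control DN3 cells, and 0.577 in Scd1-deficient and 0.696 in control naive cells. Among Notch and pre-TCR genes 1 of 19 had one (1.12%), inside the Notch coactivator gene Maml2, with 1.06 in Scd1-deficient and 1.24 in control DN3 cells, and 0.752 in Scd1-deficient and 1.08 in control naive cells. In TCR signalling 1 of 24 genes had one (0.568%), the Fyn member described above. One region, 2.32 kb from the ribosomal protein gene Rps19, counts for both Rps19 and the B cell gene Cd79a. It had 0.280 in Scd1-deficient and 0.376 in control DN3 cells, and 0.585 in Scd1-deficient and 0.801 in control naive cells.

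Fatty acid synthesis and desaturation, the pathway of Scd1, had 2 members among 71 regions (2.82%), at 2 of 22 genes. At the rate of all genes, 0.653%, this list would hold fewer than 1 member. A share that rests on 2 regions carries wide counting error. Elovl5 encodes an elongase of polyunsaturated fatty acids, and the member inside it had a relative fold of 0.825 in Scd1-deficient and 1.08 in control DN3 cells, and of 0.529 in Scd1-deficient and 0.650 in control naive cells. Mlxipl encodes ChREBP, a glucose-responsive activator of fatty acid synthesis genes, and its member had 0.554 in Scd1-deficient and 0.648 in control DN3 cells, and 0.395 in Scd1-deficient and 0.497 in control naive cells. Ratios were 0.762 and 0.813 at Elovl5 and 0.855 and 0.795 at Mlxipl. Cholesterol synthesis and uptake had no member among 44 regions, and fatty acid oxidation and storage none among 53. No member fell to the lists of Wnt and beta-catenin, AP-1 and immediate early, unfolded protein and oxidative stress, cell cycle, housekeeping or myeloid genes, with between 19 and 77 regions each. At the rate of all genes each of these 8 lists would hold fewer than 1 member.

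Scd1 itself had no member. The region over the end of the gene at chr19:44406551-44408833 had a relative fold of 1.34 in Scd1-deficient and 1.38 in control DN3 cells, and of 0.801 in Scd1-deficient and 0.870 in control naive cells. It ranked 2483 of 36229, and a region beside the gene had ratios of 1.00 in DN3 and 1.08 in naive cells. An ATAC peak over a gene end does not check the deletion, whose place the labels do not give. The 4 common regions at Scd2, the neighbouring desaturase gene, had ratios between 0.989 and 1.08 in DN3 and between 0.937 and 1.12 in naive cells.

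The contrast between cell types was not used by the rule. Members had a higher relative fold in DN3 than in naive cells in 55.7% of cases in Scd1-deficient and 59.7% in control cells, against 66.7% and 70.2% of common regions. The order of the sets depended on the scaling: with fold not scaled the shares were 51.0% in Scd1-deficient and 51.7% in control cells, against 37.4% and 51.7%. Scaled by the median over common regions, which kept 249 members, they were 44.7% in Scd1-deficient and 43.3% in control cells, against 50.6% and 47.9%. More than 2-fold between cell types in either direction was seen in 14.0% of members in Scd1-deficient and 12.3% in control cells, against 6.99% and 9.53% of common regions. In the weakest band of common regions it was seen in 11.8% in Scd1-deficient and 15.0% in control cells, and in the stronger set in 9.33% and 12.7%, so the members did not stand apart from weak regions in this.

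The libraries differed in background, peak width and number of peaks. The lists held 76450 peaks in Scd1-deficient and 76828 in control DN3 cells, and 51309 in Scd1-deficient and 46585 in control naive cells. The lowest local background, which rises with depth and fragment length, was 4.47 fragments in Scd1-deficient and 4.72 in control DN3 cells, and 3.65 in Scd1-deficient and 5.12 in control naive cells. The narrowest peak was 214 bp in Scd1-deficient and 217 bp in control DN3 cells, and 225 bp in Scd1-deficient and 275 bp in control naive cells. Background and peak width thus moved with genotype most in naive cells, depth and fragment length cannot be told apart in them, and their part in the naive ratios was not tested. Markers of the labelled cell types were checked by their gene ends. A region within 1 kb of the gene end was listed for all 10 DN3 markers in both DN3 lists, and for 7 in the Scd1-deficient and 6 in the control naive list. Ptcra, the pre-T cell receptor alpha gene, Rag2 and Dntt had one in the DN3 lists only, while Notch3, Il2ra, Dtx1 and Cd3e had a higher relative fold in the naive list than in the DN3 list of the same genotype. All 10 naive markers had one in every list, and their summed relative fold was 13.2 in Scd1-deficient and 12.8 in control DN3 cells, above the 8.67 in Scd1-deficient and 8.55 in control naive cells. Open gene ends thus did not separate the cell types in the direction of the naive list. Of 7 B cell markers 4 had one in each DN3 list and 3 in each naive list, with a summed relative fold of 4.16 in Scd1-deficient and 4.11 in control DN3 cells and of 2.18 in Scd1-deficient and 1.47 in control naive cells, and Ms4a1 had none in any list. Of 7 myeloid markers 4 had one in Scd1-deficient and 3 in control DN3 cells and 3 in each naive list, and Csf1r and Adgre1 had none. In bulk samples fewer cells with an open region and less opening per cell cannot be told apart.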

How the data were processed

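ATAC-seq was done on freshly sorted cells, 1 library for each genotype and cell type, so no p-value was computed. Per the submitters' processing notes, Trimmomatic, BWA, MACS2 and the build mm10 were used; of their versions and settings, duplicate removal and any Tn5 shift, nothing is stated in the sources used here. The authors deposited narrow peak lists called for each library separately, with a score, a fold over local background (a ratio), −log10 p, −log10 q and a summit position for each peak; these are the authors' values. The deposited score was not used, and −log10 q, which grows with depth, only to describe or filter peaks.

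Regions on chromosomes 1 to 19 and X were merged where at least 1 bp overlapped. The fold was divided by the median of its list before ratios were taken. Fragments at each summit and their local background were recovered from the fold and −log10 p; the fragments came out whole, within 0.05, for 100% of peaks. No total read count was used. Fragments may include PCR duplicates, so intervals cover counting error only. Fragment ratios have exact 95% Clopper-Pearson intervals, shares Wilson 95% intervals. Genes and start sites came from RefSeq GRCm38.p6 (21631 protein-coding genes and 32619 promoters). A gene-end region lies within 1 kb of either end of a gene, by the nearest edge of the region; a region belongs to a gene within its body or 10 kb on either side. All 291 list symbols matched; 1 marker is not reported here by name.

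Besides the motifs given with the promoters, ETS in a longer form (CCGGAAGT, which contains GGAAGT), RUNX (TGTGGTTT), TCF/LEF (TTTGATC or also CTTTGAA), E box (CAGCTG or also CACCTG), CTCF (CAGGGGGCG or also CCACNAGG), NRF1 (GCGCNTGCG), IRF (GAAANNGAA), STAT (TTCNNNGAA), NF-kB (GGNNTTTCC), YY1 (AAGATGGC) and nuclear receptor (AGGTCA) patterns were searched on both strands; they stood in 0 to 3 of the 17 member promoters and are not described further. No genome sequence was used.

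The members, lists and tests were chosen with earlier results of these data known. Genes named were, by rule, those of the first 20 members, up to 3 members per list, genes with at least 2 members, the 2 members ranked last and the 2 regions that just missed, the 5 widest members, Scd1 and Scd2. The 7 members with both intervals below the common median, 5 of the promoters and the X members were picked with their values in view. The steps were tested on simulated data. Analyses used Python 3.11.15 with pandas 2.3.3, numpy 2.4.6, scipy 1.17.1 and matplotlib 3.10.9.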

Additional observations from a re-analysis of the deposited data

How the results depend on the processing

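Of 106 alternative values, 59 were counted as unchanged, 44 moved and 3 changed direction. Unchanged meant within the spread of the reported value, except for the member set, which has no spread. There, settings that kept 201 or more members were counted as unchanged and those that kept 150 or fewer as moved. The tally includes counts of kept members that the setting itself fixes, as given below. Where a setting changed the value or the pool of regions, the members were chosen again under it. No paired analysis was possible because each group holds 1 library. The planned summit windows for motifs were not run, since no genome sequence was used. Restricting to summits within 150 bp, leaving out the X, limiting the local background and weighting by band of strength were added after seeing the data.

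Of the 300 members, 146 were kept with −log10 q of at least 10, 224 with unscaled fold and 249 with scaling by the common median. Summit fragments as the value, scaled by their median over common regions, kept 140. A minimum width of 1000 bp kept 146, summits within 150 bp 201 and a background of at most 3 times the lowest 234. These 3 limits, and leaving out the X, only took regions out of the pool, so every member that met them was kept. Taking 150 or 600 members fixes the count as well. Such counts do not show how stable the member set is. The median of the larger ratio, 0.827 as reported, was 0.797 with common-median scaling, 0.859 at 1000 bp, 0.859 at the stricter q, 0.819 with the mean fold, 0.773 with fragments, 0.799 for 150 members, 0.858 for 600, 0.845 with summits within 150 bp and 0.836 with the limited background. The gene-end share of 9.0% became 14.0% with the mean fold, 6.0% with fragments, 5.33% for 150 members and 13.0% with a 2 kb window. Among common regions the gene-end share fell to 23.1%, against 32.4%, and the start-site share to 18.2%, against 28.0%, when weighted to the members' bands. The width of 980 bp became 1300 bp, 1100 bp, 1070 bp, 1130 bp and 944 bp with the 1000 bp minimum, the stricter q, the mean fold, fragments and summits within 150 bp.

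The common DN3 median of 1.03 was 1.00 unscaled, 1.01 with common-median scaling, 1.04 at 1000 bp and 1.03 at the stricter q. It was 1.03 with fragments, also scaled by the common median, and 1.01 with the limited background. The common naive median of 1.05 changed side with common-median scaling, to 0.992, and with fragments, to 0.994; it was 1.09 unscaled, 1.04 at 1000 bp, 1.06 with no minimum, 1.05 with the mean fold, 1.06 with summits within 150 bp and 1.09 with the limited background. The share of members higher in DN3 than in naive control cells was 59.7% as reported. Over the regions chosen again it was 51.7% unscaled, 43.3% with common-median scaling, 52.7% at 1000 bp and 31.3% with fragments. The correlation of -0.0333 was 0.00135 in the weakest band, -0.055 at gene ends, -0.0522 and -0.0728 in the third and strongest bands and -0.0793 with fragments. The cause of these shifts was not tested. Depth limits the precision of the members, whose summits held medians of 34.5 to 57 fragments.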
